A study of Homo sapiens with 6 samples.

Results

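The genes described here encode RAB27A and RAB27B, their synaptotagmin-like effectors SYTL1 to SYTL5, the further effectors MYRIP and UNC13D, and the syntaxin STX19. They were chosen by name, as every row of the deposited gene table that carries one of these 10 symbols alone or joined to other names, out of 18268 rows. The choice was made with the group difference of these libraries already known, SYTL2 and STX19 being among its most negative rows, so all differences between the groups for these 10 genes are given as descriptions without a test. RNA was sequenced from MIA PaCa-2, an established human pancreatic carcinoma cell line. Of the 6 libraries, 3 came from cells that overexpress the long noncoding RNA LINC00901 and 3 from vector control cells carrying pCDH. The labels number the replicates 1 to 3 in each group and do not say whether these were separate cultures, or whether either line is a clone, so the spread between replicates may be technical. Values are FPKM, fragments counted per gene after scaling to gene length and to the mapped fragments of the library, which allows levels to be compared between genes.

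RAB27A and RAB27B are small GTPases that sit on secretory granules, lysosome-related organelles and multivesicular endosomes and, when bound to GTP, recruit effectors that move, tether and dock the vesicle at the plasma membrane. The synaptotagmin-like proteins bind active RAB27 through an N-terminal domain and membrane lipids or SNAREs through a pair of C2 domains. MYRIP couples RAB27 to myosin motors, UNC13D primes docked granules for fusion, and syntaxins belong to the SNARE proteins that drive fusion. In secretory epithelia these proteins serve granule discharge, and in tumour cells RAB27A and RAB27B are known for the release of extracellular vesicles.

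FPKM sums were 127768 to 128538 in the overexpression libraries and 87162 to 88738 in the vector libraries, and the depth behind them is unknown. Overexpression as such was not checked, as LINC00901 was not analysed here. The labels call the cells epithelial. Keratin 18 (KRT18) stood at 62.48 to 86.92 FPKM in the overexpression libraries and at 90.93 to 105.38 in the vector libraries, and vimentin (VIM) at 543.43 to 633.62 against 197.85 to 250.45, while CDH1 and EPCAM did not exceed 0.14 FPKM in any library. The 7 epithelial and carcinoma line markers, of which 4 had a mean of at least 1 FPKM, summed to 643.75 to 762.56 FPKM in the overexpression libraries and to 319.99 to 386.86 FPKM in the vector libraries, a gap that lay in VIM. Without VIM the sums overlapped, at 100.32 to 128.94 against 122.14 to 136.41 FPKM, with the KRT8 row at 14.82 to 16.56 against 19.7 to 27.76 and KRT19 at 22.89 to 25.02 against 2.22 to 5.92. Fibroblast markers summed to 174.01 to 198.56 against 189.13 to 204.54 FPKM, most of it COL3A1, with DCN and PDGFRB at or below 0.14. COL1A2 was lower without overlap, at 10.39 to 15.77 against 17.58 to 18.43 FPKM. COL1A1 was higher without overlap, at 1.5 to 1.99 against 0.36 to 0.92, and LUM stood at 0.1 to 0.24 against 0 to 0.68. Leukocytes and melanocytes are the cell types best known for RAB27 granules. The leukocyte markers PTPRC and CD3E were listed at 0 throughout, and the list's sum of 35.56 to 39.25 against 23.16 to 26.09 FPKM lay mostly in the joined row EIF4A1;CD68;SENP3, with CD14 at 0.62 to 1.37 against 0 to 0.48. Of 5 melanocyte markers TYR and DCT were listed at 0 throughout, and the sums overlapped at 4.53 to 8.07 FPKM in the overexpression libraries and 5.76 to 6.55 in the vector libraries. MITF stood at 3.53 to 7.15 against 4.01 to 4.8 FPKM, PMEL at 0.55 to 0.78 against 0.13 to 0.47, and MLANA, lower like SYTL2 and without overlap, at 0.22 to 0.44 against 1.23 to 1.7. The part of these markers in the differences described here was not tested. Because RNA came from whole cultures, fewer cells with a transcript and less transcript per cell cannot be told apart.

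SYTL2, the synaptotagmin-like protein known to tether RAB27 vesicles to the plasma membrane in epithelial and pigment cells, was by far the highest member of its family in the vector libraries and was near the level of its paralogues in the overexpression libraries. It stood at 1.63, 1.43 and 1.68 FPKM in overexpression replicates 1 to 3 and at 16.43, 15.28 and 17.60 FPKM in vector replicates 1 to 3. All overexpression libraries were lower than all vector libraries, and within each group the values lay close together. The means were 1.58 ± 0.132 and 16.4 ± 1.16 FPKM (SD, n = 3 each), so the vector mean was 10.4 times that of the overexpression libraries. On the log2(FPKM + 0.5) scale, which understates the change of low genes, the difference was -3.03 as deposited and -3.29 relative to the median tested row. That median row was itself higher by 0.27 in the overexpression libraries. Among the 9694 rows with a mean of at least 1 FPKM, SYTL2 was number 1 from the lowest difference. In the vector libraries 94.6% of all rows had a lower mean than SYTL2, and in the overexpression libraries 52.2% did.

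The other synaptotagmin-like genes were low in both groups. SYTL1, an effector described in granule secretion of blood cells, had 1.27, 1.68 and 1.37 FPKM in the overexpression libraries and 1.29, 2.24 and 1.39 in the vector libraries. SYTL3, which links granules to kinesin in cytotoxic lymphocytes, stood at 1.39, 1.06 and 1.13 FPKM against 0.87, 0.75 and 1.18. For both genes the groups overlapped. The log2 difference of SYTL1 was -0.12 and that of SYTL3 0.25, and after each library was centred on its median row they were -0.33 and 0.04. Without vector replicate 2 the sign for SYTL1 turned, to 0.07. With an adjustment for transcript GC content and length SYTL1 stood at -0.67 and SYTL3 at -0.05. Over 13 alternatives SYTL1 ran from -0.67 to 0.07. As the sign of each gene turned with the setting, no direction can be given for either. SYTL4, or granuphilin, which docks insulin granules, did not exceed 0.09 FPKM in the overexpression libraries and 0.14 in the vector libraries. SYTL5 was listed at 0 in all 6 libraries.

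**Figure D1:**
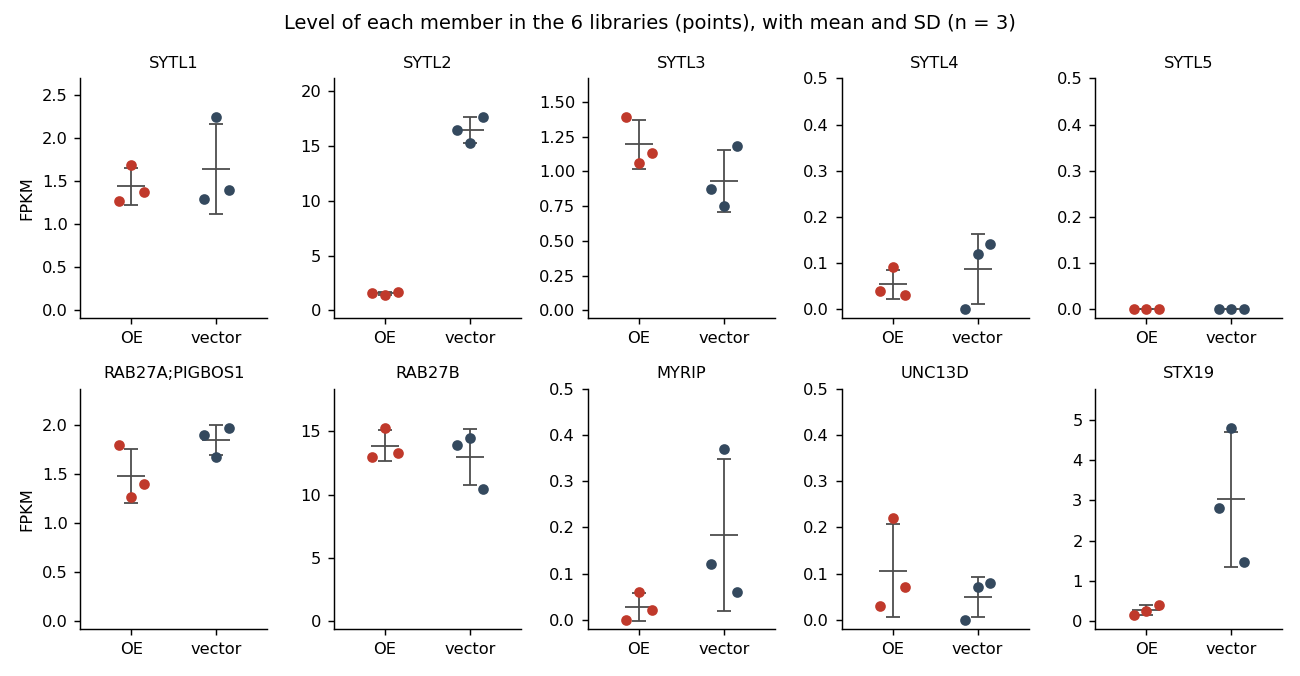
Level of each of the 10 genes in FPKM (vertical axis, linear, scaled per panel), with 3 overexpression libraries (OE, red) left of 3 vector libraries (dark). Points are libraries and bars give mean and SD. The groups are apart for SYTL2 and STX19, and the panels of SYTL4, SYTL5, MYRIP and UNC13D stay below 0.5 FPKM.

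Because FPKM is per length, the family can be summed. SYTL1 to SYTL5 together gave 4.33, 4.26 and 4.21 FPKM in the overexpression libraries and 18.59, 18.39 and 20.31 FPKM in the vector libraries. SYTL2 made up 37.0% ± 3.19 of this sum in the overexpression libraries and 86.1% ± 2.71 in the vector libraries (SD, n = 3 each). The difference in the sum lay almost wholly in SYTL2. Without it the family summed to 2.69 ± 0.150 FPKM in the overexpression libraries and 2.66 ± 0.477 FPKM in the vector libraries (SD, n = 3 each). The rank order also differed. In the vector libraries SYTL2 came first, then SYTL1, SYTL3 and SYTL4 in each library. In overexpression replicate 2 SYTL1, at 1.68 FPKM, stood above SYTL2, at 1.43, and in the other two overexpression libraries SYTL2 came first. Over the overexpression libraries the ranges of SYTL2 and SYTL1 overlapped, as did those of SYTL1 and SYTL3, and SYTL2 and SYTL3 were apart by a small margin, with 1.43 as the lowest SYTL2 value and 1.39 as the highest SYTL3 value.

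For the GTPases themselves the groups overlapped. RAB27B, the paralogue known for granule and extracellular vesicle secretion in epithelial and exocrine cells, measured 12.99, 15.27 and 13.32 FPKM in the overexpression libraries and 13.95, 14.47 and 10.40 FPKM in the vector libraries. The means were 13.9 ± 1.23 and 12.9 ± 2.22 FPKM (SD, n = 3 each), and the groups overlapped. RAB27A, whose loss causes Griscelli syndrome, shares its row with PIGBOS1, a gene that overlaps it on the same strand, so the value cannot be assigned to RAB27A alone. This joined row measured 1.79, 1.26 and 1.40 FPKM in the overexpression libraries and 1.90, 1.67 and 1.97 in the vector libraries, again with overlap. PIGB, which overlaps RAB27A on the opposite strand, measured 3.34, 3.04 and 3.43 FPKM against 4.26, 2.82 and 3.1. RAB27B was therefore the prevailing paralogue, with 90.3% ± 2.26 of the RAB27 sum in the overexpression libraries and 87.3% ± 2.87 in the vector libraries (SD, n = 3 each). The log2 difference of RAB27B was 0.11 as deposited, -0.10 after median centring, -0.28 after quantile normalization and 0.29 with the GC and length adjustment, so its sign depended on the scaling. That of the RAB27A row was -0.25 as deposited and -0.46 after median centring.

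Set against its GTPase, SYTL2 ran at 0.125, 0.0936 and 0.126 times the RAB27B level in the overexpression libraries, and at 1.18, 1.06 and 1.69 times that level in the vector libraries. A ratio within a library does not change when all its values are multiplied by the same factor. Quantile normalization and the GC and length adjustment act row by row and can change it. These ratios were taken from the deposited values. The whole synaptotagmin-like sum was 0.279 ± 0.0185 times the RAB27 sum in the overexpression libraries and 1.32 ± 0.280 times in the vector libraries (SD, n = 3 each). RAB27B alone made up 69.2% ± 2.21 of the summed FPKM of the 10 rows in the overexpression libraries and 34.7% ± 3.81 in the vector libraries (SD, n = 3 each).

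**Figure D2:**
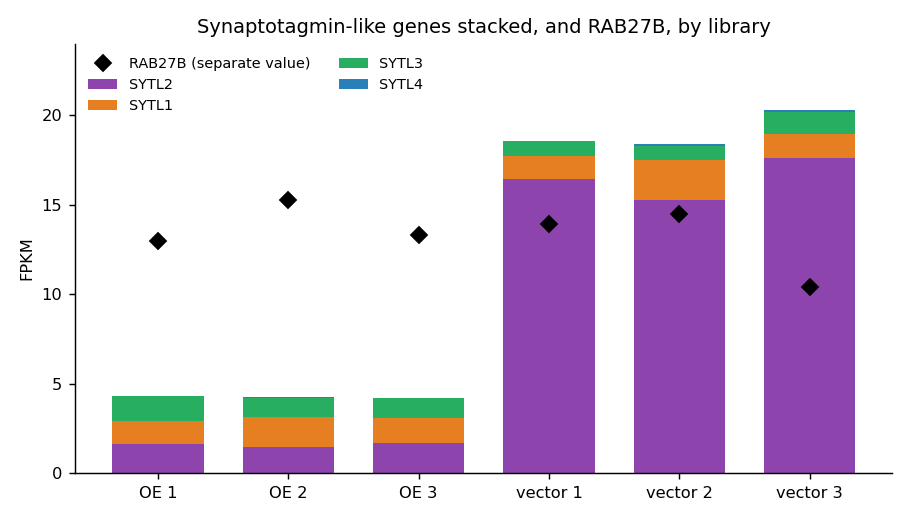
FPKM of SYTL2, SYTL1, SYTL3 and SYTL4 stacked per library (bars, from 0), with RAB27B as a separate value (diamonds); SYTL5 is 0 and not visible. The stacks reach 4.21 to 4.33 FPKM in the overexpression libraries (OE) and 18.39 to 20.31 FPKM in the vector libraries, while RAB27B lies between 10.40 and 15.27 in all 6.

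MYRIP and UNC13D were barely present. MYRIP, which joins RAB27A to myosin VIIA on melanosomes, measured 0.00, 0.06 and 0.02 FPKM in the overexpression libraries and 0.12, 0.37 and 0.06 FPKM in the vector libraries, so the groups met at 0.06. UNC13D, or Munc13-4, the priming factor of cytotoxic granules, stood at 0.03, 0.22 and 0.07 FPKM against 0.00, 0.07 and 0.08. The depth behind values of this size is unknown and a listed 0 need not mean an absent transcript, so no order was read from them.

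STX19, a syntaxin that lacks a transmembrane segment and is expressed in epithelia, was the other member whose groups did not overlap. It measured 0.16, 0.26 and 0.40 FPKM in the overexpression libraries and 2.82, 4.80 and 1.47 FPKM in the vector libraries. Every overexpression value was below the lowest vector value, but the vector libraries differed among themselves more than 3-fold. The means were 0.273 ± 0.121 and 3.03 ± 1.67 FPKM (SD, n = 3 each). The log2 difference was -2.09 as deposited and -2.35 relative to the median row, number 11 from the lowest of 9694, and it ran from -2.45 to -1.74 when single libraries were left out. STX19 passed the filter of 1 FPKM only through the vector libraries, so some difference was given in advance.

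Whether fragments were counted by strand is not given in the sources used here, so reads of genes that overlap on opposite strands cannot be told apart. SYTL2 lies inside no other gene according to GENCODE 29. Of its nearest protein-coding neighbours, CCDC89 measured 0.38, 0.41 and 0.21 FPKM in the overexpression libraries and 1.30, 0.49 and 2.61 in the vector libraries, without overlap. CCDC83, on its other side, did not exceed 0.05 and 0.15 FPKM in the 2 groups. These neighbours were looked up after the values of SYTL2 were known.

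Of the 10 genes, 6 passed the filter on low values and 4 lay below it. Among the 6, the groups did not overlap for 2, SYTL2 and STX19, both lower, while over all 9694 rows past the filter the overexpression libraries lay wholly below the vector libraries in 15.6% and wholly above in 44.9%, 60.6% in all. Nothing is read from the members' count, since they were chosen from this contrast and STX19 passed the filter through the vector libraries alone. For the genes that are not members, groups were compared by limma across all these rows, with Benjamini-Hochberg adjustment and a threshold of 0.05. By that test 11.9% of all rows were lower and 37.4% higher, 49.2% in all.

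**Figure D3:**
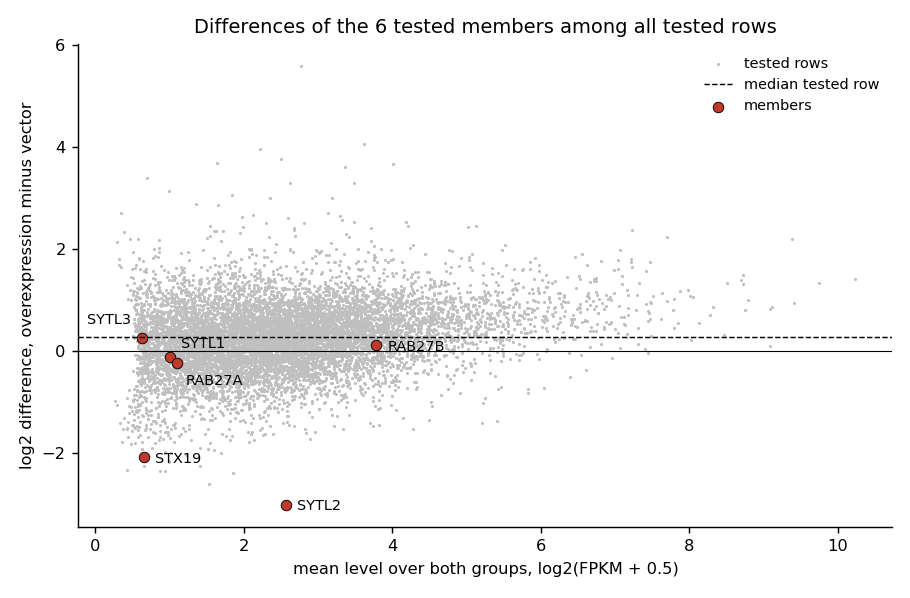
Difference between overexpression and vector libraries (vertical axis, log2 of FPKM + 0.5) against mean level (horizontal axis, same scale) for 9694 tested rows (grey), with the 6 members past the filter in red and the median row dashed at 0.27. SYTL2 lies at -3.03, below all other rows, STX19 at -2.09, and the other 4 lie between -0.25 and 0.25.

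**Figure D4:**
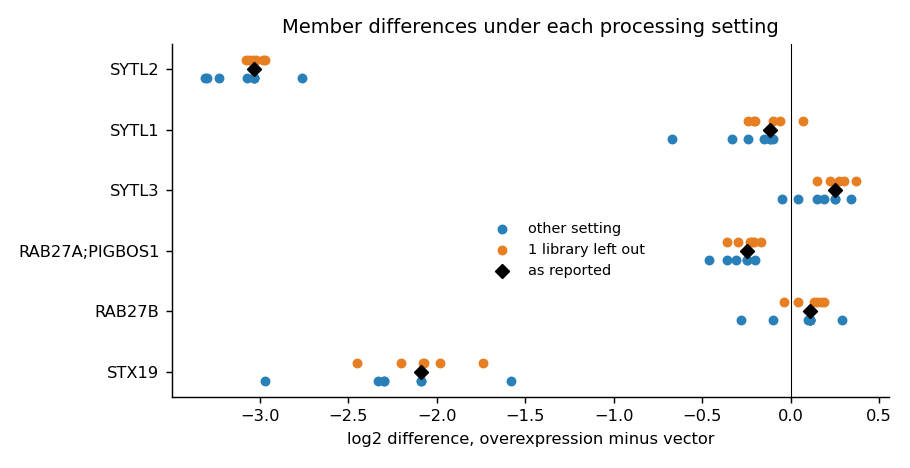
Log2 difference, overexpression minus vector (horizontal axis), of the 6 members past the filter as reported (diamonds), with 1 library left out (orange) and under the other settings (blue). SYTL2 runs from -3.31 to -2.76 and STX19 from -2.97 to -1.58, while SYTL1, SYTL3 and RAB27B have points on both sides of 0.

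The 4 rows whose profile over the 6 libraries was most like that of SYTL2 were OGN and ASPN, matrix proteoglycans, TAS2R30, a bitter taste receptor, and ANGPTL1, an angiopoietin-like secreted protein. Likeness was the root mean square difference between log2(FPKM + 0.5) profiles, each centred on its own mean, and it was 0.337, 0.401, 0.517 and 0.531 for these rows. OGN, for example, measured 0.43, 0.25 and 0.37 FPKM in the overexpression libraries and 3.64, 3.56 and 4.45 in the vector libraries. All 4 genes lie inside the span of another protein-coding gene in GENCODE 29, OGN and ASPN in CENPP, TAS2R30 in PRH1 and ANGPTL1 in RALGPS2. TAS2R30 lies inside 3 such genes, of which only the values of PRH1 were looked up. SYTL2 lies inside no other protein-coding gene. The host CENPP measured 2.12, 1.02 and 0.77 FPKM in the overexpression libraries and 1.93, 2.73 and 0.95 in the vector libraries. RALGPS2 stood at 4.90, 9.37 and 6.99 against 7.65, 3.59 and 6.24 FPKM. For both of these hosts the groups overlapped, unlike the genes inside them. PRH1, on the same strand as TAS2R30, was apart like its inner gene, at 0.33, 0.40 and 0.38 FPKM in the overexpression libraries and 1.44, 1.90 and 1.26 in the vector libraries.

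RefSeq promoter windows, 250 bases before to 50 after a transcript start on GRCh38.p14, were at hand for 8 of the 10 genes, 18 windows in all, and not for SYTL2 and UNC13D. They are shown for STX19, whose groups were apart, and for RAB27B, the highest member of the overexpression libraries, as members with unlike levels; no link between these letters and the levels was tested. Capitals mark matches to TGANTCA, the AP-1 motif, on either strand; the E-box CACGTG was searched as well. The motifs can overlap by a pair of bases at either end.
STX19, chr3:94028548-94028847, minus strand: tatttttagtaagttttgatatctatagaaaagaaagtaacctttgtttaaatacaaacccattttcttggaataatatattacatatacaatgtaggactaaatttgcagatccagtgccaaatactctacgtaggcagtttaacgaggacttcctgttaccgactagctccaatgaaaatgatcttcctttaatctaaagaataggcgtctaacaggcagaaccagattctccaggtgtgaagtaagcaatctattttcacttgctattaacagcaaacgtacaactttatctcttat
RAB27B, first start, chr18:54717607-54717906, plus strand: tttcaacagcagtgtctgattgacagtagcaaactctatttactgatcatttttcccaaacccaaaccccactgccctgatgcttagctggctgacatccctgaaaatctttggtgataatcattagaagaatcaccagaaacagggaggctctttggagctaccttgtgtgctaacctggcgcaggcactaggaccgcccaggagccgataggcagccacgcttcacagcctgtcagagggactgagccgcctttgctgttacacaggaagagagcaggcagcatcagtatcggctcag
RAB27B, second start, chr18:54828227-54828526, plus strand: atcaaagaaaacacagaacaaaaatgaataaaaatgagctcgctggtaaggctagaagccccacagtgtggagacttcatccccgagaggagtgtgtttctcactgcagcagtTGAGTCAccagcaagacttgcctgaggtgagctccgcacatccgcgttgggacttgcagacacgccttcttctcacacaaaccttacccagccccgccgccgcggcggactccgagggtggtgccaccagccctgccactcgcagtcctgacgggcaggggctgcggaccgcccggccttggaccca
The STX19 window and the first RAB27B window hold neither motif. The second RAB27B window holds TGAGTCA from base 114 of 300. Over the 18 windows 6 held TGANTCA, in RAB27A, RAB27B, SYTL1, SYTL3 and SYTL5, and 0 held CACGTG. Of all 35116 windows on file, 7.71% held TGANTCA and 7.26% CACGTG. Windows of 1 gene serve the same gene and are not independent counts, and a match is a description of letters, not of binding.

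Other parts of the RAB27 cycle were followed in lists chosen by textbook role. Of 19 regulators and further effectors of RAB27, 12 were tested, 5 were higher (41.7%, against 37.4% over all rows) and 1 was lower (8.33%, against 11.9%). The counts were 2 higher and 1 lower after quantile normalization, and 3 and 0 of 9 with the GC and length adjustment. The median log2 difference was 0.34, against 0.27 over all rows. GDI2, which draws inactive Rab proteins off membranes, rose. GDI2 stood at 66.6 ± 1.49 FPKM in the overexpression libraries and 40.9 ± 1.25 FPKM in the vector libraries (SD, n = 3 each), a log2 difference of 0.70 (limma adjusted p = 0.000317). The call on GDI2 was lost with quantile normalization (limma adjusted p = 0.682, range over 15 alternatives 0.000204 to 0.682).

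MADD, the exchange factor that loads RAB3 and RAB27 with GTP, stood at 10.2 ± 0.663 FPKM in the overexpression libraries and 6.86 ± 0.536 in the vector libraries (SD, n = 3 each; limma adjusted p = 0.00503, and 0.0892 with quantile normalization, the highest of 15 alternatives from 0.00373). The joined row CASTOR1;TBC1D10A;AC004997, which holds the RAB27A GTPase-activating protein TBC1D10A, stood at 2.53 ± 0.401 against 1.19 ± 0.269 FPKM (limma adjusted p = 0.00751). RABGGTB, a subunit of the enzyme that attaches the lipid anchor of Rab proteins, shares a row with ACADM and MSH4 and was higher too (log2 difference 0.38, limma adjusted p = 0.0217). That call was lost without overexpression replicate 1 (0.0655) or 3 (0.0639) and without vector replicate 1 (0.0545), after median centring (0.2) and quantile normalization (0.196) and with the replicate block (0.0610), over a range of 0.0201 to 0.2 in 13 alternatives. MYO5A, the myosin that carries RAB27A granules through MLPH, was the lower one, at 2.97 ± 0.179 FPKM in the overexpression libraries and 3.90 ± 0.286 in the vector libraries (SD, n = 3 each; limma adjusted p = 0.0379). The MYO5A call was lost without any of the 3 overexpression replicates and without vector replicate 1 or 2 (adjusted p 0.0627 to 0.107). It was also lost with the replicate block (0.0814), with no filter (0.0556) and with the GC and length adjustment (0.101), and over 14 alternatives the adjusted p ran from 0.00752 to 0.107.

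MLPH, the adaptor between RAB27A and MYO5A, did not pass, at 2.70, 3.67 and 3.94 FPKM in the overexpression libraries against 2.72, 2.68 and 2.77 FPKM in the vector libraries (limma adjusted p = 0.165). Without overexpression replicate 1 it passed (limma adjusted p = 0.0382, range over 14 alternatives 0.0382 to 0.969). EXPH5, a synaptotagmin-like relative without C2 domains, did not pass either, at 1.79, 1.2 and 1.44 against 1.44, 1.18 and 1.52 FPKM (limma adjusted p = 0.758). RPH3AL, or Noc2, lay below the filter, at 0.24, 0.06 and 0.23 FPKM against 0.53, 0.58 and 0.28. CORO1C, a coronin that binds RAB27A, measured 9.96, 10.66 and 10.89 FPKM in the overexpression libraries and 7.02, 17.78 and 6.33 in the vector libraries (limma adjusted p = 0.716). It overlapped through vector replicate 2 alone, and without that library it passed as higher, with a log2 difference of 0.62 (limma adjusted p = 0.00626, range over 15 alternatives 0.00626 to 0.98).

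Among other secretory Rab GTPases, 10 of 13 genes were tested, and 5 of the 10 were higher (37.4% over all rows) and 0 lower, and the median log2 difference was 0.69, against 0.27 over all rows. RAB32, known from melanosome-related traffic, stood at 31.5 ± 1.76 FPKM in the overexpression libraries and 15.3 ± 3.23 FPKM in the vector libraries (SD, n = 3 each; limma adjusted p = 0.00157). RAB35 and RAB11A, both known for recycling endosomes and vesicle release, stood at 6.18 ± 0.165 against 3.22 ± 0.0839 FPKM and at 18.9 ± 1.40 against 10.5 ± 1.43 FPKM (limma adjusted p = 0.000635 and 0.00174). RAB11B and the joined row TMEM205;RAB3D were the other higher rows. TMEM205;RAB3D varied in the vector libraries, with 17.95, 21.86 and 20.65 FPKM in the overexpression libraries against 1.78, 10.77 and 9.14 FPKM. Its limma adjusted p of 0.0423 became 0.0850, 0.105 and 0.0948 without overexpression replicates 1, 2 and 3 (range over 14 alternatives 0.00296 to 0.112). RAB11B, with a limma adjusted p of 0.0236, lost its call without overexpression replicate 2 (0.0745) or 3 (0.0560) and without vector replicate 2 (0.0507), and its log2 difference was -0.09 with the GC and length adjustment (range over 15 alternatives 0.0142 to 0.663). RAB32 had an adjusted p of 0.0506 with that adjustment, the highest of its 15 alternatives from 0.000842. The count of higher Rab genes was 3 without overexpression replicate 2 or 3, 3 after median centring or quantile normalization, and 3 of 8 with the GC and length adjustment.

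Of 33 SNARE, Munc13 and Munc18 genes in 32 rows, 25 rows were tested, 8 were higher (32.0%, against 37.4% over all rows) and 2 lower (8.0%, against 11.9%), shares close to or below those of all rows, with a median log2 difference of 0.27, as over all rows. The balance turned with the scaling, to 4 higher and 3 lower after median centring, then 3 and 4 after quantile normalization. With the GC and length adjustment it was 2 and 4 of 23. Among all 9694 rows the balance moved as well, with 2331 higher against 1866 lower once libraries were median centred. Quantile normalization left 1865 higher rows against 2024 lower ones. Under the GC and length adjustment 1987 of 8830 rows were higher and 1513 lower. No shift particular to the SNARE genes is read from such small counts. The joined row VAMP5;VAMP8, which holds the granule SNARE VAMP8, stood at 8.09 ± 0.330 FPKM in the overexpression libraries and 2.90 ± 0.904 in the vector libraries (SD, n = 3 each; limma adjusted p = 0.00211). The joined row of VAMP2, a vesicle SNARE of regulated secretion, stood at 4.43 ± 0.680 against 1.58 ± 0.243 FPKM (limma adjusted p = 0.000902). BAIAP3, a Munc13 relative close to UNC13D, stood at 2.69 ± 0.853 against 0.967 ± 0.311 FPKM (limma adjusted p = 0.00928), and passed the filter only through the overexpression libraries. NAPB, which helps to take SNARE complexes apart after fusion, fell to 3.08 ± 0.404 FPKM in the overexpression libraries, against 6.57 ± 1.91 FPKM in the vector libraries (SD, n = 3 each; limma adjusted p = 0.0120). SNAP25, the SNARE of neuronal and endocrine secretion, was the other lower gene, at 1.92 ± 0.356 against 2.80 ± 0.260 FPKM (limma adjusted p = 0.0422). The SNAP25 call was lost without overexpression replicate 1 or 2 or any vector replicate (0.0517 to 0.114), with the replicate block (0.0532) and with no filter (0.0655), over a range of 0.0107 to 0.114 in 14 alternatives. In place of 10 called rows there were 6 without overexpression replicate 1, 2 or 3 and 5 without vector replicate 2, and 5 with the replicate block.

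STX11, the syntaxin of cytotoxic granules, did not exceed 0.13 FPKM in the overexpression libraries and 0.18 in the vector libraries. The joined row STXBP2;PET100, which holds the Munc18 protein of that complex, stood at 0.36, 0.54 and 0.66 FPKM against 0.22, 0.23 and 0.15. UNC13B, the broadly expressed Munc13, was tested and did not pass, at 2.55, 2.45 and 2.82 against 2.12, 1.53 and 2.39 FPKM (limma adjusted p = 0.141).

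Synaptotagmins and other genes with paired C2 domains were mostly below the filter. Of 22 genes 4 were tested, and 0 passed limma in either direction, with the intensity trend or without it, while 1 had an unadjusted p under 0.05. Over all rows 49.2% passed in the fit with the trend. The tested rows were DOC2A, ESYT2 and the joined rows ITPRIPL2;SYT17 and ESYT1;ZC3H10. ITPRIPL2;SYT17 and DOC2A stood at 2.72 ± 0.464 against 3.96 ± 0.943 FPKM and at 2.03 ± 0.223 against 2.44 ± 0.297 FPKM (SD, n = 3 each; limma adjusted p = 0.0812 and 0.224). With no filter on low values 3 of 18 rows passed, all lower, against 1406 lower of 14518 over all rows. After median centring 2 of 4 passed as lower, against 1866 lower of 9694. No shift particular to this list is read from such small counts.

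The exocyst, the complex that tethers secretory vesicles, had 9 tested genes, of which 4 were higher (44.4%, against 37.4%) and 0 lower, with a median log2 difference of 0.32. The higher genes were EXOC4, EXOC6B, EXOC7 and EXOC2, with log2 differences of 0.59, 0.51, 0.37 and 0.32 (limma adjusted p = 0.0122, 0.0107, 0.0187 and 0.0387). None of the 9 was called after median centring or quantile normalization, where the adjusted p of EXOC4 was 0.0672 and 0.108 (range over 15 alternatives 0.00405 to 0.108), and 2 were called without overexpression replicate 3. EXOC7 lost its call without that library (0.0754, range 0.0143 to 0.553), and EXOC2 lost its call without any of the overexpression replicates and without vector replicate 1 or 2 (0.0503 to 0.122, range over 15 alternatives 0.0300 to 0.881).

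Vesicle cargo and sorting genes, the tetraspanins, flotillins and ESCRT proteins found in extracellular vesicles, were higher or not called on the deposited scale. Of 17 genes 16 were tested, 10 were higher (62.5%, against 37.4%) and 0 lower, with a median log2 difference of 0.47. CD82, 1 of the 10, passed the filter only through the overexpression libraries, at 1.84 ± 0.155 against 0.957 ± 0.147 FPKM (SD, n = 3 each). Its call was lost with the GC and length adjustment (limma adjusted p = 0.315). For the whole list the count was 6 higher and 1 lower after median centring and 3 and 1 after quantile normalization. It was 1 and 0 of 14 with the GC and length adjustment, and 6 and 0 without overexpression replicate 3. How many of these genes were called thus depended on the scaling and on single libraries. Over all rows 2331 were higher after median centring, 1865 after quantile normalization and 1987 of 8830 with the GC and length adjustment. The flotillins FLOT1 and FLOT2 stood at 20.8 ± 2.49 against 10.0 ± 2.31 FPKM (SD, n = 3 each) and, for FLOT2, at 23.65, 29.82 and 28.94 against 16.19, 13.7 and 15.16 FPKM (limma adjusted p = 0.00358 and 0.00143). TSG101, of ESCRT-I, stood at 7.30 ± 0.695 FPKM in the overexpression libraries and 4.04 ± 1.43 in the vector libraries, and CHMP4B, of ESCRT-III, at 29.3 ± 1.79 against 17.3 ± 1.41 (SD, n = 3 each; limma adjusted p = 0.0189 and 0.000938). The TSG101 call was lost without overexpression replicate 1 (0.0611) or 3 (0.0528), without vector replicate 3 (0.0564) and under all 3 scaling alternatives (0.0594, 0.0707 and 0.119, range over 15 alternatives 0.00237 to 0.119). The call on CHMP4B was lost with quantile normalization (0.0629) and with the GC and length adjustment (0.0797, the highest of 15 from 0.000688), and that on FLOT1 with the GC and length adjustment (0.0511, the highest of 15 from 0.00326). CD63 and CD9, tetraspanins used as vesicle markers and named after their values were seen, stood at 50.4 ± 5.70 against 31.4 ± 5.89 FPKM and at 24.8 ± 1.18 against 15.9 ± 1.76 FPKM. With the GC and length adjustment their log2 differences were 0.05 and 0.14.

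**Figure D5:**
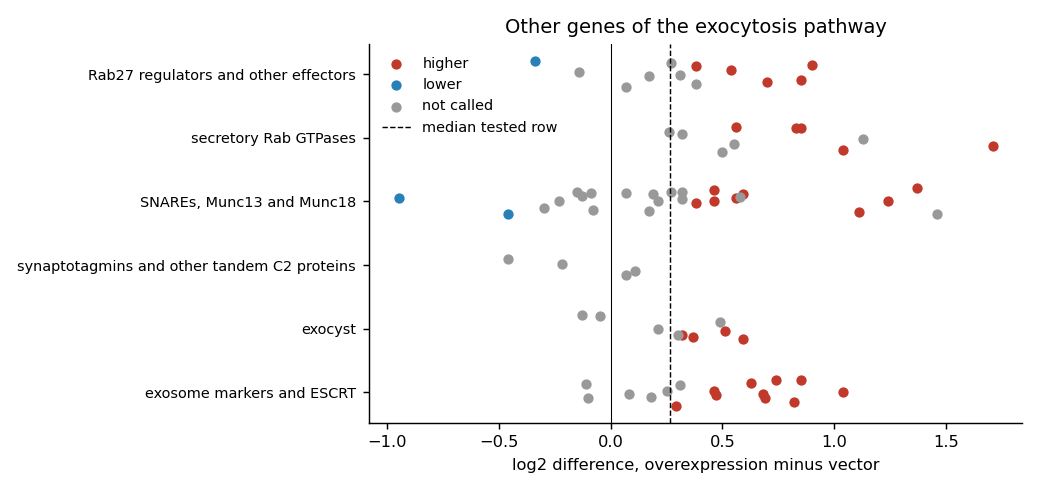
Log2 difference, overexpression minus vector (horizontal axis), of each tested gene in 6 lists (rows), coloured by limma call (red higher, blue lower, grey not called), with the median row dashed at 0.27. NAPB is the lowest of these genes at -0.95, and none lies as low as SYTL2 at -3.03 or STX19 at -2.09.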

How the data were processed

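The authors deposited gene-level FPKM values, 1 per row and library, per the file headers; 0 value columns were left without a sample. The tools named per the submitters' processing notes are HISAT2, cutadapt and FastQC, and the build is hg19. Tool versions, and what computed the FPKM values, are not given in the sources used. Of 18268 rows, 990 join several names and are given under all of them. Depth is unknown. Among low values 17.1% of ratios between overexpression libraries and 20.2% of those between vector libraries lay within 0.1 log2 of a power of 2. Ratios of whole reads need not be powers of 2, so these shares cannot show whether whole reads underlie the values. No whole reads were recovered, and no count model was used because FPKM values are not counts. Values were transformed to log2(FPKM + 0.5), rows with a mean of at least 1 FPKM were kept, and the groups were compared with limma 3.58.1 (R 4.3.3), with its trend of variance on intensity,, without a replicate block, with Benjamini-Hochberg adjustment over all 9694 rows at 0.05. The fit was tested on simulated data. Members and lists were chosen with earlier results of these data known. Named genes were the members, genes overlapping them, up to 4 called genes per list in order of absolute difference, all where a count was 5 or fewer, and the 4 rows most like SYTL2; others are marked. Some genes that the rule covers are not reported here. Alternatives were pseudocounts of 1 and 0.1, no filter or 5 FPKM, median centring, quantile normalization, the replicate block, no trend and leaving out each library. Adjustment for GC content and length, from the longest GENCODE 29 transcript per symbol, was added after seeing the data. GENCODE 29 is of another build, so it gave no coordinates. Promoters are RefSeq's. Python 3.11.15 with pandas 2.3.3, numpy 2.4.6 and matplotlib 3.10.9 did the other steps.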

Additional observations from a re-analysis of the deposited data

How the results depend on the processing

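The SYTL2 difference of -3.03 kept its sign under all 14 alternatives run and was -2.76 with a pseudocount of 1, -3.30 with 0.1, -3.23 after median centring and -3.31 after quantile normalization. STX19, at -2.09, kept its sign under all 13 and was -2.97 with a pseudocount of 0.1. Over all rows 4773 genes were called, 3621 higher and 1152 lower. The counts were 2818, 2396 and 422 with a mean of at least 5 FPKM, where 4830 rows were left. Median centring gave 2331 higher and 1866 lower, and quantile normalization 1865 and 2024. With the GC and length adjustment, added after seeing the data, 1987 were higher. In the lists, called genes numbered as follows. RAB27 regulators had 6, and 3 each with a mean of at least 5 FPKM, quantile normalization or the GC and length adjustment. Secretory Rab genes had 5, and 3 after median centring, quantile normalization and the GC and length adjustment, and 3 to 6 when 1 library was left out. SNARE genes had 10, then 4 with a mean of at least 5 FPKM, 6 with the GC and length adjustment, and 5 to 8 with 1 library left out. Synaptotagmins had 0, then 3 with no filter, 2 after median centring, 1 after quantile normalization and 1 with the GC and length adjustment. The exocyst had 4, then 0 after median centring and after quantile normalization, and 2 to 4 with 1 library left out. Vesicle cargo genes had 10, then 4 after quantile normalization, 1 with the GC and length adjustment, and 6 to 10 with 1 library left out. A stricter mean leaves fewer genes to test; for the other changes the cause was not tested.

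The values showed no pairing by replicate number, as the deviations of same-numbered libraries correlated at -0.037, -0.0057 and -0.005. Whether same-numbered libraries were prepared together cannot be told from these correlations. With the replicate block 4227 genes were called, and 5 SNARE genes in place of 10. Depth is unknown, so the precision of values under 1 FPKM cannot be given.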
